A study of Rattus norvegicus with 2 samples.

Results

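Described here are Ccl2 and 6 further genes of secreted cytokines, Tnf, Il4, Il13, Lif, Vegfa and Tgfb1, in rat basophilic leukemia cells with and without IgE. They were taken by name from the deposited table of all genes, where 7 of 7 were found among 14913 distinct gene names, and each had at least 20 reads over both libraries. They were chosen by name with earlier results of these data known, and Ccl2 was selected on its read counts in these same 2 libraries. Their values are therefore a description and carry no test. The cells were RBL-2H3, a tumour line widely used as a model of mast cells and basophils. Messenger RNA of 1 culture incubated with IgE and of 1 culture without treatment was sequenced, both labelled wild type (WT). The labels give neither the dose nor the time of IgE, and do not say whether an antigen was added. The series set out to follow what happens downstream of IgE at its high-affinity receptor. With 1 library per group there is no replicate, and no difference below has a replicate check.

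Mast cells and basophils carry IgE on a high-affinity surface receptor, and crosslinking of that receptor by antigen releases stored mediators and then switches on cytokine genes. Ccl2 is a chemokine that draws in monocytes through its receptor Ccr2. Tnf is an inflammatory cytokine cut from the cell surface, Il4 and Il13 are neighbouring genes for type 2 cytokines that act through receptors sharing Il4r, and Lif belongs to the interleukin-6 family. Vegfa drives the growth and leakiness of blood vessels, and Tgfb1 is secreted in a latent form and restrains many immune cells.

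The IgE library held 26268330 counted reads and the untreated library 20917968. Levels are given in CPM, that is counts brought to one common depth with TMM, a scaling that lines up the bulk of genes, and a log2 fold is IgE over untreated with 0.5 counts added. Each log2 fold carries an exact (Clopper-Pearson) 95% interval that covers counting error only. Of the 12102 genes with 20 or more reads, 161 (1.33%) were at least 2-fold higher with IgE and 157 (1.3%) at least 2-fold lower, and the median log2 fold was 0.0016. Of 15 mast cell and basophil markers 13 were counted, with 9683 CPM in sum in the IgE library and 9368 CPM in the untreated library. Of 12 macrophage markers 4 were counted (Cd68, Csf1r, Itgam and Msr1), with 60.8 CPM in sum in the IgE library and 71.6 CPM in the untreated library. Itgam alone made up 57.6 CPM of the sum with IgE and 66.1 CPM of the sum untreated. Their log2 folds ran from -2.13 (Msr1, on 7 reads with IgE and 26 untreated) to -0.20 (Itgam). The counting intervals of Cd68 and Csf1r held 0. Of 11 lymphocyte markers 4 were counted, with 122.3 CPM in the IgE library and 113.2 CPM in the untreated library, and of 9 fibroblast and endothelial markers 2 were counted, with 448.7 CPM in the IgE library and 477.1 CPM in the untreated library. Whether other cells played a part in the differences below was not tested, and in a bulk library more cells that make a transcript cannot be told apart from more RNA per cell.

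Ccl2, the monocyte chemoattractant, stood above the other 6 genes in its difference. It had 772 reads in the IgE library and 129 in the untreated library, which is 29.4 CPM with IgE against 6.15 CPM untreated. At the untreated level the IgE library would have held 161.3 Ccl2 reads at its depth. The ratio of the levels was 4.78, with a counting interval of 3.97 to 5.81, or a log2 fold of 2.25 (1.99 to 2.54). Among the 8369 genes with 500 or more reads Ccl2 had rank 1 by log2 fold, ahead of LOC100362453 (log2 fold 1.52) and Egr1 (1.21). Among the 10367 genes with 100 or more reads it had rank 2, and among all 12102 genes it had rank 18. In the authors' deposited table Ccl2 had an adjusted p of 5.67e-16, where 41 of 14913 names (0.275%) had one under 0.05, and it was the 1 gene of the 7 in the authors' deposited list of 451 selected names (3.02%). That p was recomputed from an assumed spread between cultures, as no replicate gives one.

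**Figure D1:**
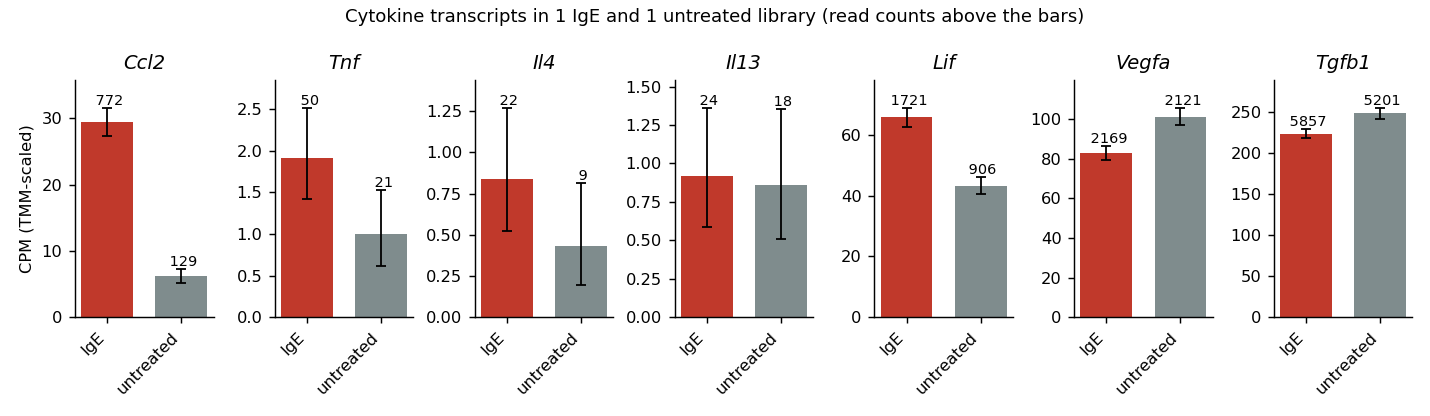
Level of each cytokine transcript in CPM in the IgE library (red, left) and the untreated library (grey, right), 1 library each, on a linear axis per gene that starts at 0. Black bars are exact Poisson 95% counting intervals and the numbers over them are read counts; for Ccl2, Lif, Vegfa and Tgfb1 the intervals of the libraries are apart, and for Tnf, Il4 and Il13 they overlap.

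Of the 7 genes, 1 (Ccl2) was at least 2-fold higher with IgE, while 1.33% of the 12102 genes were. None was 2-fold lower (0 of 7, with 1.3% of the 12102), and the other 6 stayed short of 2-fold. The counting interval lay above 0 for Ccl2, Tnf and Lif, below 0 for Vegfa and Tgfb1, and held 0 for Il4 and Il13. Such an interval is no rare thing in these libraries, since it lay above 0 for 19.4% of the 12102 genes and below 0 for 19.1%. The median log2 fold of the 7 was 0.60, the value of Lif, beside 0.0016 over all genes. As the 7 were chosen with earlier results of these data known, that median is a description only. The interval of Ccl2 was apart from those of Tnf, Il13, Lif, Vegfa and Tgfb1 and overlapped the wide interval of Il4.

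**Figure D2:**
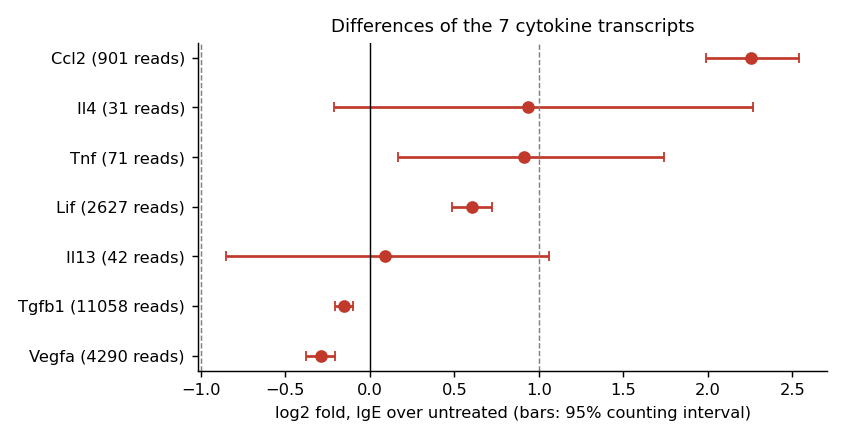
Log2 fold of IgE over untreated for each gene (points) with its 95% counting interval (bars), ordered by size, with dashed lines at 2-fold. The Ccl2 interval, 1.99 to 2.54, lies wholly beyond the 2-fold line, while those of Il4, Tnf and Il13 cross it and those of Lif, Tgfb1 and Vegfa lie within it.

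Tnf, the inflammatory cytokine, was low in reads in both cultures. It had 50 reads with IgE and 21 untreated, or 1.91 CPM with IgE against 1.00 CPM untreated, a log2 fold of 0.91 (0.17 to 1.74). The floor of 3 reads corresponds to 0.114 CPM in the IgE library and 0.143 CPM in the untreated library, so Tnf lay above it in both. Of the 1735 genes with 20 to under 100 reads, 9.86% had a log2 fold at least that of Tnf, so a difference of this size is common among genes counted so thinly. The authors' deposited table gives Tnf an unadjusted p of 0.0365 and an adjusted p of 0.887.

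Il4 and Il13, the type 2 cytokine genes, were the weakest counted of the set. Il4 had 22 reads with IgE and 9 untreated (0.839 CPM with IgE against 0.429 CPM untreated), and its log2 fold of 0.93 had an interval of -0.21 to 2.27. Il13 had 24 reads with IgE and 18 untreated (0.916 CPM with IgE against 0.859 CPM untreated), with a log2 fold of 0.09 and an interval of -0.85 to 1.06. A doubling of Il13 and a fall to 0.555 of its untreated level both lie within that interval, so a difference within that range was not detectable at this depth. The intervals of Il4 and Il13 overlapped, and a difference between the pair was not tested. Among genes of the same read class the middle 95% of log2 folds ran from -1.60 to 1.63, and Tnf, Il4 and Il13 all lay inside it.

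The 250 bases before the transcript start of Tnf and Il4 are shown because the log2 folds of this pair were the next highest of the 7 after Ccl2, and because both are textbook targets of NFAT, the calcium-driven factor of mast cell activation. They are RefSeq sequences of build GRCr8, Tnf at chr20:3626435-3626684 on the plus strand and Il4 at chr10:38277550-38277799 on the minus strand, each read 5′ to 3′ along its gene. Capitals mark the NFAT core letters GGAAA on either strand.
Tnf: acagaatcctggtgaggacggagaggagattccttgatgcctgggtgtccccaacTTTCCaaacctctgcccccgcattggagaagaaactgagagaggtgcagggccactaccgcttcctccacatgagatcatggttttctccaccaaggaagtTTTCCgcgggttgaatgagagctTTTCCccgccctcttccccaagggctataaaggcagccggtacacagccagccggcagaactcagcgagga
Il4: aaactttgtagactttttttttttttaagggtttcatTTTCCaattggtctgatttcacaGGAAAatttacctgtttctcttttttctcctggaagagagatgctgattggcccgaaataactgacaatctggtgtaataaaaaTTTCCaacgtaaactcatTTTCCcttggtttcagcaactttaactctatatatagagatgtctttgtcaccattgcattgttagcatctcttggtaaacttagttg
The core occurred 3 times before Tnf (starting at bases -195, -94 and -71, counted back from the start) and 4 times before Il4 (at -213, -190, -106 and -88). It is a short run of letters found at least once in 56.9% of 33360 distinct windows of this length, so its presence sets neither gene apart. How many windows hold it 3 or 4 times was not counted. Tnf also held the TATA box letters TATAAA at -46, found in 12.9% of windows, and the GC box letters GGGCGG on the opposite strand at -66, found in 30.5%. No match overlapped another. Neither window held the NF-kappaB consensus (3.55% of windows do), the AP-1 letters TGANTCA (6.35%), the CRE letters TGACGTCA (1.59%) or the EGR letters GCGNGGGCG (4.3%). A match is a description of letters and not of binding. Windows were found for 4 of the 7 genes, and those of Ccl2, Il13 and Lif are not shown.

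Lif, the leukemia inhibitory factor, was the second gene after Ccl2 to differ on a large number of reads. It had 1721 reads with IgE and 906 untreated, or 65.6 CPM with IgE against 43.2 CPM untreated, a ratio of 1.52 (1.40 to 1.65) and a log2 fold of 0.60 (0.49 to 0.72). The IgE library would have held 1133 Lif reads at the untreated level. Although short of 2-fold, Lif had rank 6 by log2 fold among the 5079 genes with 2000 or more reads, 0 of which were 2-fold apart in either direction and whose middle 95% ran from -0.25 to 0.31. In the authors' deposited table its unadjusted p was 0.00517 and its adjusted p 0.371.

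**Figure D3:**
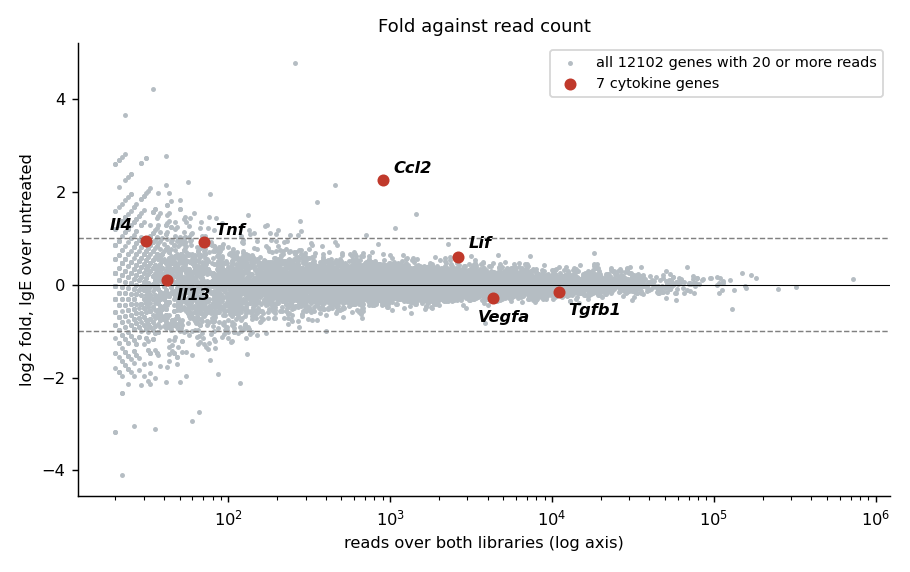
Log2 fold of IgE over untreated against reads over both libraries (log axis) for 12102 genes (grey) and the 7 cytokine genes (red), with dashed lines at 2-fold. The scatter widens towards low counts, where Il4, Tnf and Il13 lie inside the cloud, while Ccl2 at 901 reads stands above it and Lif at 2627 reads sits at its upper edge.

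Vegfa and Tgfb1, the growth factor genes, were lower with IgE by small amounts on many reads. Vegfa had 2169 reads with IgE and 2121 untreated, which at the unequal depths is 82.7 CPM with IgE against 101.2 CPM untreated. Its ratio was 0.818 (0.770 to 0.868), a log2 fold of -0.29 (-0.38 to -0.20), and it had rank 66 from the lowest among the 5079 genes with 2000 or more reads. Tgfb1 had 5857 reads with IgE and 5201 untreated, or 223.4 CPM with IgE against 248.1 CPM untreated, a ratio of 0.900 (0.867 to 0.935) and a log2 fold of -0.15 (-0.21 to -0.10). Of the genes of its read class 12.5% had a log2 fold as low or lower, so the Tgfb1 difference lay well inside the general scatter, and the Vegfa difference lay just outside the middle 95%. The authors' deposited table gives both an adjusted p of 1.

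The windows before the outermost start of Vegfa and Tgfb1 are shown so that they can be read beside those of Tnf and Il4 above. A second Vegfa window, before an inner start at chr9:22460028-22460277, is not printed. Of the letters searched it held only the NFAT core, at -242. The printed Vegfa window lies at chr9:22452604-22452853 and that of Tgfb1 at chr1:90324062-90324311, both on the plus strand of GRCr8, with the NFAT core again in capitals.
Vegfa: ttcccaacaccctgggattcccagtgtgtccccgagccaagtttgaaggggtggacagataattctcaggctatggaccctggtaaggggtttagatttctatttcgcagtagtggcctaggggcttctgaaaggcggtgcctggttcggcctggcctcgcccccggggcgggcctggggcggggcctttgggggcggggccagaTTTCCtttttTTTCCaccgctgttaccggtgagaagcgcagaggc
Tgfb1: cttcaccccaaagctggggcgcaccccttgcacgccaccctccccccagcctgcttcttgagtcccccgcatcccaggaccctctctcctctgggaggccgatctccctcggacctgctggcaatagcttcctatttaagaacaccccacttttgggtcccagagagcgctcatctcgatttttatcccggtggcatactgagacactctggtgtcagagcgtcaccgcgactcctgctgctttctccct
The printed Vegfa window held the NFAT core at -45 and -35 and the GC box letters at -84, -73 and -58. The Tgfb1 window held none of the letters searched. The NFAT core was thus present before Vegfa as well as before Tnf and Il4.

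The wider family of secreted factors was described by 5 lists of 137 ligands, of which 55 were analysed here and 32 had 20 or more reads. Without the 7 genes above, 25 ligands remained over the minimum, of which 0 were 2-fold apart. Of these 25, 15 had a log2 fold above 0, as did 50.3% of the 12102 genes, and the median was 0.11. The counting interval lay above 0 for 11 of them and below 0 for 3, beside 19.4% and 19.1% of the 12102 genes. The 23 ligands under the minimum had at most 10 reads in the IgE library and 8 in the untreated library, and together 107 reads with IgE and 80 untreated.

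Of 34 chemokines, 11 were analysed here and 3 had 20 or more reads, and Ccl2 alone of the 3 was 2-fold higher. Pf4, platelet factor 4, had 4401 reads with IgE and 2677 untreated (log2 fold 0.39, 0.32 to 0.46), and Ppbp, which encodes another platelet chemokine, 916 with IgE and 640 untreated (0.19, 0.05 to 0.34). Ccl7, the close relative that follows Ccl2 in gene order, had 5 reads with IgE and 1 untreated, and its log2 fold of 1.62 had an interval of -1.16 to 7.56. Cxcl1 had 2 reads with IgE and 3 untreated, and Cxcl10 had 3 in each library. How reads shared by similar chemokine genes were counted is not known here.

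Of 46 interleukins and blood cell cytokines, 9 had 20 or more reads, 0 were 2-fold apart, and the median was 0.19. Of the 9, 8 were above 0, beside 50.3% of the 12102 genes. Among those 8 are Il4, Il13 and Lif, which were chosen with earlier results of these data known. Il4 was the highest, followed by Cntf, a neurotrophic relative of Lif, with 171 reads with IgE and 84 untreated (log2 fold 0.70, 0.32 to 1.10). Il16 was the lowest, with 64 reads with IgE and 84 untreated (-0.71, -1.21 to -0.23), and Il13 was next. Osm, another member of the Lif family and its direct neighbour on the chromosome, had 3275 reads with IgE and 2269 untreated (0.21, 0.13 to 0.28). Il3 had 2 reads with IgE and 6 untreated, and Il9 had 4 with IgE and 0 untreated.

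Of the TNF superfamily, 7 ligands had 20 or more reads and none was 2-fold apart, with a median of 0.09. Tnf was the highest, and Ltb, the lymphotoxin beta gene beside it, came next. Ltb had 99 reads with IgE and 67 untreated (0.24, -0.22 to 0.71). Tnfsf15 (-0.52, -1.79 to 0.67), on 12 reads with IgE and 14 untreated, and Tnfsf9 (-0.44) were lowest. Of 10 growth factors over the minimum none was 2-fold apart, 4 were above 0 and 6 below, with a median of -0.15. Angpt2, an angiopoietin that acts with Vegfa on vessels, had 35 reads with IgE and 14 untreated (0.98, 0.07 to 2.01), and Pdgfd had 51 with IgE and 22 untreated (0.88, 0.14 to 1.68). The lowest were Fgf2 (-0.87, -2.22 to 0.34) on 10 reads with IgE and 15 untreated, and Egf (-0.37, -0.53 to -0.22). Of the TGF-beta superfamily 3 ligands passed the minimum, Bmp1, a procollagen protease named with that family, at 0.48 (0.26 to 0.69), Gdf11 at -0.12 and Tgfb1, and the median was -0.12.

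Receptors for these cytokines differed little. Of 20 listed receptor genes 6 had 20 or more reads, 0 were 2-fold apart, and the median log2 fold was -0.04. Ackr1, a decoy receptor that binds Ccl2, was the highest at 0.29 (-0.01 to 0.60), and Il2rg at 0.11 next. Il4r, the shared chain for Il4 and Il13, was the lowest at -0.20 (-0.30 to -0.10), followed by Tgfbr1 at -0.09. Ccr2, Lifr, Il6st and the Tnf receptors were not analysed here.

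Of 12 counted genes for the processing and release of the cytokines, 1 was 2-fold higher, 1 was 2-fold lower and 10 lay between, with a median of -0.08. The pair apart were matrix proteases with few reads, Mmp2 with 24 reads with IgE and 6 untreated (1.61, 0.35 to 3.26) and Mmp14 with 6 with IgE and 14 untreated (-1.46, -3.21 to -0.07). Among the 1735 genes with 20 to under 100 reads, 8.07% were 2-fold higher and 8.18% 2-fold lower, so both proteases belong to a class where such folds are common. Adam17, the protease that sheds Tnf, was at -0.07, and Furin, which cleaves the Tgfb1 precursor, at -0.21. Rhbdf1 (-0.48, -1.56 to 0.56), on 16 reads with IgE and 18 untreated, was the second lowest. Nrros (0.04), which tethers latent Tgfb1, was the second highest.

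Signal transducers below these receptors held 16 counted genes, none 2-fold apart, with a median of -0.08. Smad7, the inhibitor of Tgfb1 signalling, was the highest with 587 reads with IgE and 256 untreated (0.87, 0.66 to 1.09), and Tradd (0.39) came next. Smad3, which carries the Tgfb1 signal, was the lowest with 29 reads with IgE and 40 untreated (-0.78, -1.53 to -0.06), before Tyk2 (-0.32). Of 16 counted genes of the hypoxia response, the classic driver of Vegfa, none was 2-fold apart and the median was 0.04. They ran from Hif1an (-0.23) and Egln2 (-0.21) to Epas1 (0.16, -0.86 to 1.22) and Ankrd37 (0.40, -0.87 to 1.79). Epas1 had 21 reads with IgE and 15 untreated, and Ankrd37 had 15 with IgE and 9 untreated.

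Of 23 counted transcription factors known to act on cytokine genes, 2 were 2-fold higher, 0 were 2-fold lower and 21 lay between. Over the 12102 genes, 1.33% were 2-fold higher and 1.3% 2-fold lower. The median of the 23 was -0.01, and the list was chosen with earlier results of these data known. Egr3 had 33 reads with IgE and 1 untreated (4.22, 2.14 to 10.1). It belongs to the class of 20 to under 100 reads, where 8.07% of genes were 2-fold higher. Egr1 had 796 reads with IgE and 274 untreated (1.21, 1.02 to 1.42). In its class of 500 to under 2000 reads, 0.122% of genes were 2-fold higher. The lowest were Gata3 (-0.33) and Nfatc1 (-0.25).

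**Figure D4:**
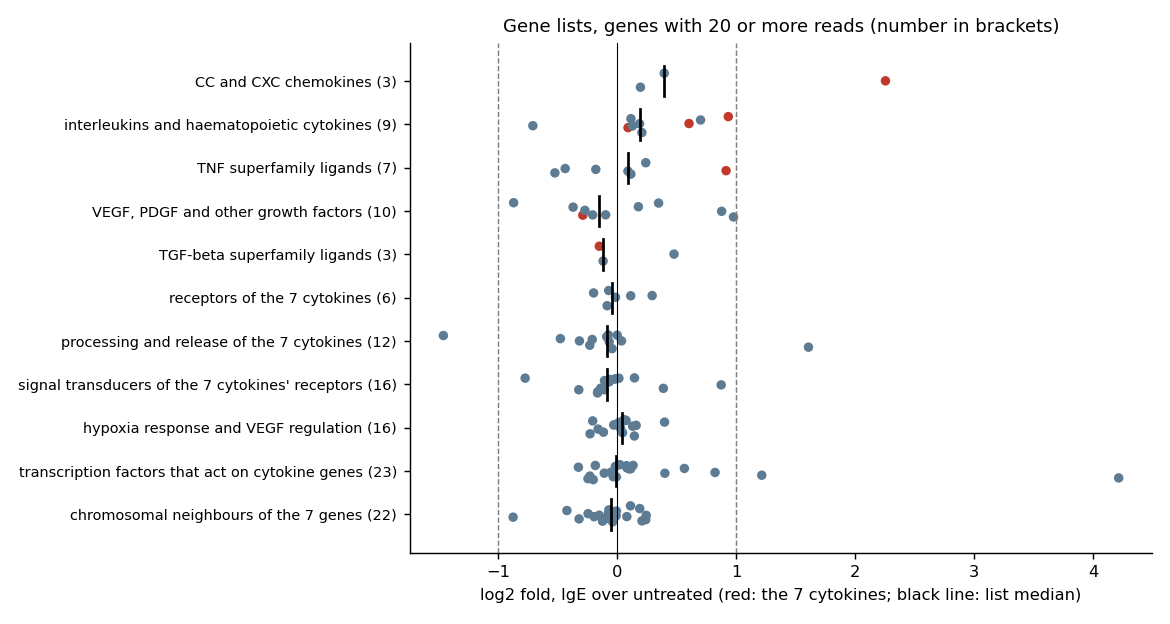
Log2 fold of IgE over untreated for the genes with 20 or more reads in each of 11 lists (points, 7 cytokines in red, other genes in blue), with the list median as a black line and dashed lines at 2-fold; vertical offset within a list only spreads the points. Every list median lies between -0.15 and 0.39, and Ccl2 is the red point beyond 2-fold.

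The 5 genes with a symbol and 100 or more reads whose log2 fold was nearest to that of Ccl2 were named as its closest in pattern, over 2 libraries only. They were Vom2r3, a vomeronasal receptor gene (288 reads with IgE and 67 untreated, log2 fold 1.77), Nfkbid, a nuclear inhibitor of NF-kappaB (131 reads with IgE and 43 untreated, 1.28), the orphan nuclear receptor Nr4a3 (127 with IgE and 42 untreated, 1.26), Egr1, and Tmem251 (100 with IgE and 35 untreated, a ratio of levels of 2.28). The nearest was 0.48 below Ccl2 on the log2 scale and the fifth 1.07 below. With 2 libraries this likeness is no more than a difference of similar size.

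Genes beside the 7 on the chromosomes were described next, taking 3 protein-coding genes on each side in RefSeq order (GRCr8). Of 36 such neighbours 22 had 20 or more reads. Of these 0 were 2-fold apart, where 1.33% of the 12102 genes were 2-fold higher and 1.3% 2-fold lower. Of the 22, 6 had a log2 fold above 0 and 16 below, beside 50.3% of the 12102 genes above 0. The median log2 fold was -0.06. Around Ccl2 the 1 neighbour analysed here was Ccl7, which was under the minimum. Around Lif the 6 neighbours ran from Tbc1d10a (-0.07) to Osm (0.21), with Castor1 (-0.01), Hormad2 (0.08), Mtmr3 (-0.01) and Ascc2 (-0.04) between. Beside Il4 and Il13, which neighbour each other, Septin8 (-0.32), Irf1 (-0.11), Kif3a (-0.10) and Rad50 (-0.04) were counted. Around Tnf, Atp6v1g2 (27 reads with IgE and 40 untreated) was at -0.88, Nfkbil1 at -0.25, Ncr3 at 0.11 and Ltb at 0.24. Around Vegfa the values were -0.42 for Tmem63b, -0.15 for Mad2l1bp, -0.07 for Mrps18a and 0.19 for Mrpl14. Around Tgfb1 they were -0.19 for Ccdc97, -0.12 for Hnrnpul1, -0.04 for Exosc5 and 0.24 for B9d2. No counted neighbour of Lif came as high as Lif itself, and for Ccl2 there was none to compare.

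**Figure D5:**
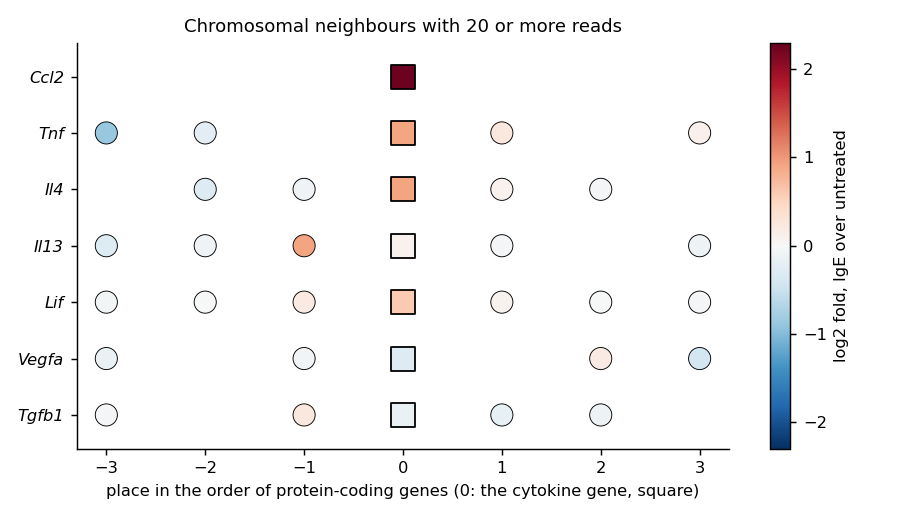
Each row is 1 cytokine gene (square) and its neighbours with 20 or more reads (circles) by place in gene order, coloured by log2 fold of IgE over untreated from blue (lower) to red (higher). No circle but Il4 beside Il13 has the red of the Ccl2, Tnf, Il4 or Lif squares, and Ccl2 has no neighbour over the minimum.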

How the data were processed

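The authors deposited raw read counts per gene name for 1 IgE and 1 untreated library, beside which stand their log2 fold change and the p-value with and without adjustment, per the file headers. Tools named in the submitters' processing notes, with no role, are HISAT2 2.1.0, fastp 0.23.0 and DESeq2 1.18.1, and the build is rn6. How reads were assigned to genes, and with which strand setting, the sources used here do not give. Of 16990 rows, 2077 repeated a name with identical values and were kept once. The deposited values were recomputed to within 4.67e-08 by edgeR's exact test with library totals and a fixed dispersion of 0.01, an assumed coefficient of variation of 0.1.

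From the counts, edgeR 4.0.16 (R 4.3.3) gave TMM scaling and log2 CPM with a prior of 0.5 counts, for genes whose reads summed to 20 or more. Groups follow the treatment label. With 1 library each there was no test and a 2-fold rule of size was used. The 95% intervals (Clopper-Pearson for ratios, Poisson for levels) reflect counting error alone and hold no spread between cultures. They also take each read as a separate molecule, although PCR copies of the same molecule cannot be told from separate molecules. The calculation was tested on simulated data with counting error only, which cannot check for spread between cultures. Members and lists were chosen with earlier results of these data known. The text names the 7 genes, the 2 highest and 2 lowest of each list, counted neighbours, the 5 genes nearest to Ccl2, and relatives by their reads; Adam17, Furin and LOC100362453 were added after their values were seen. Of the names, 11267 matched a RefSeq symbol (GRCr8). Alternatives were library totals, DESeq2 1.42.0 size factors, a prior of 5 counts, other minimums, a 1.5-fold rule and lists without the 7 genes.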

Additional observations from a re-analysis of the deposited data

How the results depend on the processing

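The log2 folds of the 7 cytokine genes stayed within their counting intervals and kept their sign under all 21 alternatives run on them, as did 216 of 216 alternatives for the other named genes. Ccl2 lay between 2.22 (prior of 5 counts) and 2.26 (DESeq2 size factors), and Il4 was at 0.71 and Tnf at 0.80 with a prior of 5 counts. These alternatives left little room for another outcome. Plain library totals and DESeq2 size factors shift all genes nearly alike, with medians of all genes of -0.0042 and 0.0024, beside 0.0016 with TMM. A prior of 5 counts draws each log2 fold towards 0.

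The counts of genes at least 2-fold apart, 161 higher and 157 lower, changed with the treatment of weakly counted genes by construction. They were 104 and 100 with a prior of 5 counts, 855 and 875 with no minimum, 21 and 15 with a minimum of 100 reads, and 436 and 432 with a 1.5-fold rule. For list medians, 63 of 66 alternatives fell inside the interval of the list, taken as the medians of its genes' lower and upper counting limits. It is not an interval for the list median itself. Some of the 66 could not move. A list that holds none of the 7 genes is unchanged without them, and 1 with no gene under the minimum is unchanged when the minimum is dropped. The chemokine median of 0.39 was 0.29 with no minimum and 0.29 without Ccl2, and the TGF-beta superfamily median of -0.12 was 0.18 without Tgfb1, on the 2 genes left. Within their ranges, the TNF superfamily median was -0.05 without Tnf and the growth factor median 0.04 with no minimum. No paired analysis was possible because the IgE and untreated groups hold 1 library apiece, which also means that none could be left out. Tnf, Il4 and Il13 had under 100 reads each, so depth limits what can be said of them.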
